A study of Mus musculus with 7 samples.

Results

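The genes described here encode the enzymes and regulators that make, remove and buffer reactive oxygen species in the cell. They were read in the carotid artery of mice born to reciprocal crosses between ApoE-null and wild-type parents. The list held 38 genes, of which 35 had at least one probe set annotated to a single symbol, out of 18193 genes so annotated on the array. Prdx1, Prdx5 and Prdx6 are not analysed here. Each gene was represented by its probe set with the highest mean signal over the 7 arrays, and 35 of the 35 passed the filter on low signals, as did 12713 genes in all.

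RNA was hybridised to Affymetrix Mouse 430 2.0 arrays, which give a linear MAS5 signal per probe set. In 4 arrays the offspring had a hypercholesterolemic ApoE-/- mother and a wild-type father (the ApoE-null mother group). In 3 arrays they had a normocholesterolemic wild-type mother and an ApoE-/- father (the wild-type mother group). All offspring were ApoE-/+, so both groups carried 1 null Apoe allele, and maternal and paternal contributions cannot be told apart. Age, sex, litter and strain are absent from the labels, as is whether the arrays stand for separate animals, so p-values measure the spread between these samples, which may be technical. The series asked whether the parental cholesterol status affects the susceptibility of offspring to atherosclerosis.

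Superoxide is formed by NADPH oxidases and by leakage from mitochondria, and superoxide dismutases turn it into hydrogen peroxide. Catalase, glutathione peroxidases and peroxiredoxins remove the peroxide, and the last of these are recharged by thioredoxin or glutathione, whose own reduction draws on NADPH. The transcription factor NRF2, encoded by Nfe2l2 and held in check by Keap1, raises many of these genes under oxidative or electrophilic stress by binding antioxidant response elements. In the artery wall, oxidation of lipoproteins and loss of nitric oxide to superoxide are long-studied parts of atherosclerosis.

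Some members carry the NRF2 core motif close to their start, and these sequences are shown because the values of NRF2 targets are given further on. The core TGACNNNGC was searched on both strands in RefSeq promoter windows of assembly GRCm38.p6, from 250 bases before to 50 bases after each annotated start. It lay in a window of 8 of the 30 members with a window (26.7%) and of 14% of all 27025 genes with one. The matches before the start are printed in the orientation of the gene, with the matching bases in capitals, and where the capitals read as the reverse complement the match is on the opposite strand. A match describes these letters and not a bound site.
Sod1, chr16:90220690-90220730, plus strand: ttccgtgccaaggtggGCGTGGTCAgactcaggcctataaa
Txnrd1, chr10:82859098-82859138, plus strand: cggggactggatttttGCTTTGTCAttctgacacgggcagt
Gclm, chr3:122245407-122245447, plus strand: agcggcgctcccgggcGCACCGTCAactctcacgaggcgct
Nfe2l2, chr2:75704879-75704913, minus strand: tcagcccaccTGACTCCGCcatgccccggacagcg
Mt2, chr8:94172523-94172563, plus strand: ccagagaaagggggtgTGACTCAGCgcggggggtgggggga
Srxn1, Pon2 and Pon3 held the motif after the start.

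Arterial identity was present on every array. The 8 smooth muscle markers had summed signals of 25779.8 to 32016.3 in the ApoE-null mother group and 24930.2 to 32707.1 in the wild-type mother group, and the 8 endothelial markers 3756.9 to 5305.0 and 3491.8 to 4662.2 in the same order. Apoe itself was detected on each array, at 2553.8 to 3105.2 with an ApoE-null mother and 3034.4 to 3897.4 with a wild-type mother. The array of wild-type mother 2 stood apart. Its Xist signal was 41.2 where the other 6 arrays had 5174.1 to 5930.9, its summed skeletal muscle signal was 2810.8 where the others had 168.0 to 425.0, and its ratio of 3 prime to 5 prime Gapdh signal was the highest (7.80, against 5.03 to 6.56). The summed signal of 10 white and brown adipocyte markers was lowest for wild-type mother 3, at 10060.1, where the other 6 arrays had 19992.3 to 29239.8. Thymocyte and T cell markers summed to 501.4 to 834.4 with an ApoE-null mother and 148.2 to 236.1 with a wild-type mother (9 markers), and erythroid markers to 523.3 to 1224.5 and 293.2 to 675.8 in the same order (5 markers, 1 of them at the level of bacterial probe sets on all arrays). The part of these cells in the values below was not tested. In bulk tissue, fewer cells of a type and less RNA per cell cannot be told apart.

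No redox gene passed the test between the crosses. Of the 35 genes, 0 had an adjusted p under 0.05 (limma, Benjamini-Hochberg over 27027 probe sets, smallest adjusted p = 0.584), where 0.00370% of all probe sets did. At an unadjusted p under 0.05 there were 2 genes, 1 higher (Cat) and 1 lower (Pon3), which is 5.71% of the genes against 8.65% of all genes tested (4.43% higher and 4.22% lower). The groups did not overlap for 2 genes, Prdx3 and Gss, both higher with an ApoE-null mother, which is again 5.71%, against 8.58% of all genes (4.34% higher and 4.24% lower). Log2 fold changes (ApoE-null mother over wild-type mother, on the log2(signal + 2) scale) ran from -0.42 to 0.39 with 16 positive and 19 negative. Their median was -0.03, and that of all genes tested was -0.01.

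The intervals bound what these arrays could have hidden. The 95% interval of the fold change lay inside a 2-fold change in either direction for 35 of 35 genes, against 83.2% of all genes tested, and inside a 1.5-fold change for 19 of them (54.3%, against 42.1%). These intervals are for single genes and were not widened for the number of genes. When each array was left out in turn, 32 to 35 of the genes stayed inside 2-fold. The count inside 1.5-fold was 12 without ApoE-null mother 1 or without wild-type mother 1, and 15 to 19 without any one of the other arrays. The median standard error was 0.17 for the redox genes and 0.20 for all genes on the log2 scale.

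**Figure D1:**
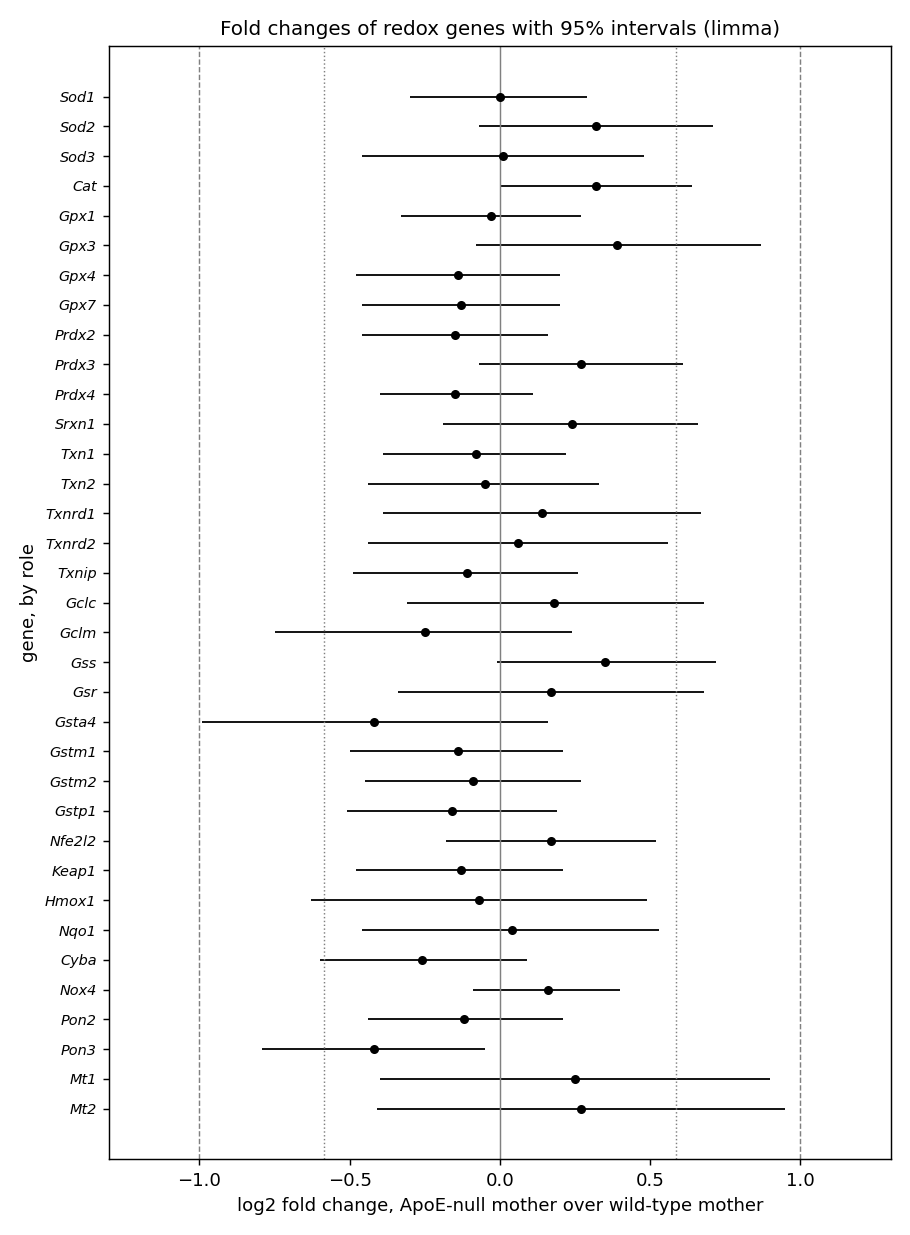
Log2 fold changes of the 35 redox genes (points) with 95% intervals (bars), ApoE-null mother over wild-type mother, ordered by role. Dotted lines mark 1.5-fold and dashed lines 2-fold in either direction. No bar reaches a dashed line, and the bars of Cat and Pon3 are the ones that do not include 0.

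Among the superoxide dismutases and catalase, Cat had the smallest p. Cat, the peroxisomal enzyme that splits hydrogen peroxide, had signals of 1778.0, 2030.7, 2053.6 and 1747.2 in the ApoE-null mother group and of 1368.4, 1846.6 and 1381.7 in the wild-type mother group. Wild-type mother 2 lay within the range of the other group, and the remaining pair lay below it. On the log2 scale the fold change was 0.32 (SE 0.15, interval 0.00 to 0.64; limma, unadjusted p = 0.0477, adjusted p = 0.604), and 0.25 to 0.46 when each array was left out. In those fits the unadjusted p (limma) was under 0.05 only without ApoE-null mother 4 (0.0485) or wild-type mother 2 (0.00427). It was 0.0541 to 0.157 without any one of the other arrays. The other probe set of Cat gave 0.18 (limma, unadjusted p = 0.297). With the adipocyte marker score as covariate Cat stood at 0.19 (limma, unadjusted p = 0.251). With the skeletal muscle score it stood at 0.48 (limma, unadjusted p = 0.00528, adjusted p = 0.402).

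Sod2, the manganese enzyme of mitochondria, was uniform in the ApoE-null mother group and spread in the other. Its signals were 5182.0, 5053.1, 5269.2 and 5148.7 with an ApoE-null mother and 3846.8, 5830.6 and 3162.0 with a wild-type mother. The wild-type mother group thus held both the highest and the lowest array, with an SD of 1386.0 against 89.3 in the ApoE-null mother group. This gave a log2 fold change of 0.32 (limma, adjusted p = 0.662). It was 0.57 without wild-type mother 2 (limma, adjusted p = 0.184) and 0.12 without wild-type mother 3, the array lowest in adipocyte markers, and the part of either array's tissue makeup was not tested. Sod1, the copper and zinc enzyme of the cytosol, averaged 5852.9 ± 385 with an ApoE-null mother (SD, n = 4) and 5914.2 ± 1096.5 with a wild-type mother (SD, n = 3). Sod3, the extracellular enzyme, averaged 942 ± 221 (SD, n = 4) and 938 ± 246 (SD, n = 3) in the same order. Their log2 fold changes were -0.00 (interval -0.30 to 0.29) and 0.01 (-0.46 to 0.48), so a difference of 1.5-fold lay outside both intervals.

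Of the 4 glutathione peroxidases, which reduce peroxides with glutathione and mostly through a selenocysteine, Gpx3 had the smallest p. Gpx3 is the secreted form found in plasma. Its signals were 2437.9, 1476.4, 2386.7 and 2245.1 with an ApoE-null mother and 1687.8, 2042.4 and 1177.4 with a wild-type mother. The groups overlapped because ApoE-null mother 2 lay below the other 3 arrays of its group. Gpx3 had the highest log2 fold change of the 35 genes, 0.39 (SE 0.22; limma, adjusted p = 0.661), and leaving out wild-type mother 3 gave 0.17, leaving out wild-type mother 2 gave 0.57. Gpx1 of the cytosol, Gpx4, which acts on lipid peroxides in membranes, and Gpx7 of the endoplasmic reticulum had log2 fold changes of -0.03, -0.14 and -0.13. A further probe set of Gpx4, singled out after its values were seen, had signals of 2191.4, 2254.8, 2576.5 and 3126.9 with an ApoE-null mother and of 3862.1, 4051.5 and 3499.8 with a wild-type mother, without overlap. Its log2 fold change was -0.60 (limma, unadjusted p = 0.00160, adjusted p = 0.458). Its probes can bind other sequences, by its name, and the stronger Gpx4 probe set overlapped between the groups, at 3863.4 to 4535.3 with an ApoE-null mother and 3723.1 to 5831.3 with a wild-type mother.

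Peroxiredoxins reduce peroxides through a cysteine that thioredoxin or glutathione restores. Prdx3, the form in the mitochondrial matrix, had signals of 1300.2, 1265.0, 1755.2 and 1331.5 with an ApoE-null mother and 1245.0, 1247.8 and 1003.3 with a wild-type mother. Every ApoE-null mother array lay above every wild-type mother array, but by a gap of less than the range within either group. Its log2 fold change of 0.27 (SE 0.16; limma, adjusted p = 0.669) stayed positive when each of the 7 arrays was left out (0.16 to 0.32). Prdx2 of the cytosol and Prdx4 of the endoplasmic reticulum had log2 fold changes of -0.15 each. Srxn1, which repairs over-oxidised peroxiredoxins, had one of 0.24, with an interval of -0.19 to 0.66.

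No gene of the thioredoxin system had an unadjusted p under 0.05, and the interval lay inside 1.5-fold for 4 of the 5. Txn1, thioredoxin of the cytosol, averaged 7806.9 ± 426 with an ApoE-null mother (SD, n = 4) and 8397.4 ± 1838.5 with a wild-type mother (SD, n = 3). Txnip, a protein that binds and inhibits thioredoxin, had the smallest p of the 5 genes. Signals of Txnip were 3837.7, 3323.1, 2622.3 and 3377.8 with an ApoE-null mother and 3443.1, 2860.7 and 4454.1 with a wild-type mother, with the highest array of all in the wild-type mother group. Its log2 fold change was -0.11 (limma, adjusted p = 0.882), and 0.05 without wild-type mother 3. Txn2, the mitochondrial thioredoxin, and the reductases Txnrd1 and Txnrd2 had log2 fold changes of -0.05, 0.14 and 0.06.

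Glutathione is built by glutamate-cysteine ligase, with its catalytic subunit Gclc and modifier subunit Gclm, and then by the synthetase Gss, while the reductase Gsr regenerates it. Gss had signals of 210.2, 213.3, 221.9 and 192.5 with an ApoE-null mother and 138.2, 167.8 and 188.0 with a wild-type mother. The groups did not overlap, though ApoE-null mother 4 and wild-type mother 3 lay close together. A log2 fold change of 0.35 resulted (SE 0.17; limma, unadjusted p = 0.0552, adjusted p = 0.610), or 1.28-fold with an interval of 0.99 to 1.64. That probe set can bind other sequences, by its name, and its values ran from 0.23 to 0.45 when each array was left out. The Gss probe set with no such mark gave 0.26, and its groups overlapped (limma, unadjusted p = 0.177). Gclc and Gsr had log2 fold changes of 0.18 and 0.17, both -0.05 without wild-type mother 2. Gclm had one of -0.25, with signals of 408.5, 312.5, 380.8 and 659.9 in the ApoE-null mother group and 466.1, 552.9 and 498.1 in the wild-type mother group. ApoE-null mother 4 was the highest array and the other 3 of its group were the lowest, and without it Gclm stood at -0.46 (limma, adjusted p = 0.455).

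Glutathione S-transferases join glutathione to electrophiles. The 4 on the member list had negative values without passing the test, where 51.2% of all genes tested were negative. Of 19 other glutathione enzymes measured, 10 were positive and 9 negative, and the transferases among them had both signs. The 4 probe sets of Gstm1 gave -0.14, -0.17, 0.09 and 0.24. Gsta4, Gstm1 and Gstp1 were highest on wild-type mother 2, and with the skeletal muscle score as covariate Gstm1, Gstm2 and Gstp1 stood at 0.06, 0.02 and 0.12. Gsta4, which clears the lipid peroxidation product hydroxynonenal, had signals of 135.7, 159.5, 174.1 and 175.9 with an ApoE-null mother and 260.7, 297.1 and 127.7 with a wild-type mother. The array of wild-type mother 3 was the lowest of all 7 and the other wild-type mother arrays were the highest. Gsta4 thus stood at -0.42 on the log2 scale (SE 0.26; limma, adjusted p = 0.698). It stood at -0.79 without wild-type mother 3 (limma, adjusted p = 0.500) and -0.18 without wild-type mother 2. Gstm1, Gstm2 and Gstp1 had log2 fold changes of -0.14, -0.09 and -0.16.

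By their strongest probe sets, neither NRF2, its inhibitor nor the classical targets Nqo1 and Hmox1 had an unadjusted p under 0.05. Nfe2l2 had signals of 1480.4, 1736.3, 1701.9 and 1771.3 with an ApoE-null mother and 1802.6, 1165.5 and 1565.3 with a wild-type mother. The lowest signal was that of wild-type mother 2, and without that array the log2 fold change was -0.01, against 0.17 with all 7 (limma, adjusted p = 0.799). The mean of all Nfe2l2 probe sets, which takes in one below the filter, gave 0.74 (limma, unadjusted p = 0.0210, adjusted p = 0.597). Keap1 had a log2 fold change of -0.13. Nqo1, a quinone reductase widely used as a marker of NRF2 activity, averaged 180 ± 30.9 with an ApoE-null mother (SD, n = 4) and 179 ± 59.5 with a wild-type mother (SD, n = 3), a fold of 1.03 with an interval of 0.73 to 1.45. Hmox1, the inducible heme oxygenase, averaged 49.0 ± 11.1 and 50.6 ± 6.26 in the same order (SD, n = 4 and 3), a fold of 0.95 with an interval of 0.65 to 1.41. Hmox1 held the lowest signal of any redox gene here, on ApoE-null mother 3 (35.0), above the highest of 27 bacterial control probe sets on that array (20.4). The members whose windows held the NRF2 core had log2 fold changes of -0.00 for Sod1, 0.24 for Srxn1, 0.14 for Txnrd1, -0.25 for Gclm, 0.17 for Nfe2l2, -0.12 for Pon2, -0.42 for Pon3 and 0.27 for Mt2, so both signs occurred.

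NADPH oxidases are the dedicated source of superoxide or hydrogen peroxide. Nox4, the form of smooth muscle and other resident cells, was among the steadiest genes, with signals of 3579.0, 3322.6, 3417.9 and 3733.5 with an ApoE-null mother and 3079.5, 3004.9 and 3382.3 with a wild-type mother. The groups overlapped through wild-type mother 3. The 7 arrays spanned 1.24-fold, the log2 fold change was 0.16 (limma, adjusted p = 0.736) and the interval ran from 0.94-fold to 1.32-fold. Cyba, the membrane subunit that stabilises several NADPH oxidases, had signals of 2397.0, 2251.8, 1840.5 and 2369.6 with an ApoE-null mother and 2145.0, 3157.7 and 2685.1 with a wild-type mother. Its log2 fold change was -0.26 (limma, adjusted p = 0.688), or -0.12 once wild-type mother 2 was left out and -0.40 once wild-type mother 1 was, whose signal was the lowest of its group.

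Paraoxonases are lactonases that protect lipids from oxidation, Pon3 being carried partly on high-density lipoprotein and Pon2 staying in the cell. Pon3 had the smallest p of the 35 genes. Its signals were 392.9, 355.3, 360.0 and 418.5 with an ApoE-null mother and 516.8, 629.6 and 410.1 with a wild-type mother. Wild-type mother 3 lay inside the range of the ApoE-null mother arrays and the other wild-type mother arrays above it. Pon3 stood at -0.42 on the log2 scale (SE 0.17; limma, unadjusted p = 0.0293, adjusted p = 0.584), or 0.75-fold with an interval of 0.58 to 0.97. It was negative when each array was left out, from -0.58 without wild-type mother 3 to -0.27 without wild-type mother 2. The unadjusted p (limma) was under 0.05 without ApoE-null mother 1, ApoE-null mother 4 or wild-type mother 3. It was 0.0637 to 0.132 without any one of the other arrays. With the skeletal muscle score as covariate Pon3 stood at -0.27 (limma, unadjusted p = 0.182). With the adipocyte score it stood at -0.59 (limma, unadjusted p = 0.00699). Pon2 had a log2 fold change of -0.12.

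Metallothioneins are small cysteine-rich proteins that bind zinc and copper, scavenge radicals and respond to metals, glucocorticoids and oxidative stress. Mt1 and Mt2 lie side by side on mouse chromosome 8 and varied most among the 35 genes, by 3.21-fold and 3.37-fold over the 7 arrays, where the median redox gene spanned 1.69-fold and the median of all genes 1.70-fold. The 250 bases before each start are shown because these neighbours had the same highest and lowest arrays. Capitals mark the metal response element cores TGCACNC and TGCGCNC on either strand, which also occur in a window of 28.2% of all genes. The windows are from RefSeq on GRCm38.p6, plus strand, at chr8:94178839-94179088 for Mt1 (1 match) and chr8:94172368-94172617 for Mt2 (3 matches). These counts leave out matches after the start, where the 28.2% covers windows from 250 bases before to 50 bases after it. They do not rank the whole promoters.
Mt1: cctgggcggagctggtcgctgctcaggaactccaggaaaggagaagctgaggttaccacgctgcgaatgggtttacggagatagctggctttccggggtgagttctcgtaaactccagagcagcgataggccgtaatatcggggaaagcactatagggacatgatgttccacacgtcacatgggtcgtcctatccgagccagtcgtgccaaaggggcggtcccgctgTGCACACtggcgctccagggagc
Mt2: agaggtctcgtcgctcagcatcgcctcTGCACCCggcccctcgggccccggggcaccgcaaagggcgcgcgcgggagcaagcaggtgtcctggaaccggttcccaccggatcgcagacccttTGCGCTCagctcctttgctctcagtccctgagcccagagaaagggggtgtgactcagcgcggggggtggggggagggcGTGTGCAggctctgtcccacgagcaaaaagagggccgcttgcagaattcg

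Mt1 had signals of 3625.0, 1992.7, 1855.6 and 1899.6 with an ApoE-null mother and 1130.4, 2397.3 and 2479.0 with a wild-type mother. Mt2 had signals of 3307.9, 1508.1, 1704.0 and 1637.5 with an ApoE-null mother and 982.6, 1812.7 and 2297.0 with a wild-type mother. Both genes were highest on ApoE-null mother 1 and lowest on wild-type mother 1, and the rest of each group overlapped. Log2 fold changes were 0.25 and 0.27 with standard errors of 0.30 and 0.31 (limma, adjusted p = 0.841 and 0.836), and they were -0.12 and -0.08 without wild-type mother 1. The Mt1 probe set can detect several genes, by its name, so Mt1 and a close relative cannot be told apart with it. A weaker probe set of Mt1, singled out after its values were seen, went the other way, with 41.9, 43.1, 68.0 and 23.5 in the ApoE-null mother group and 120.5, 107.7 and 73.9 in the wild-type mother group. Those groups did not overlap, and its log2 fold change was -1.22 (limma, unadjusted p = 0.00324, adjusted p = 0.461), a direction opposite to that of the stronger probe set.

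**Figure D2:**
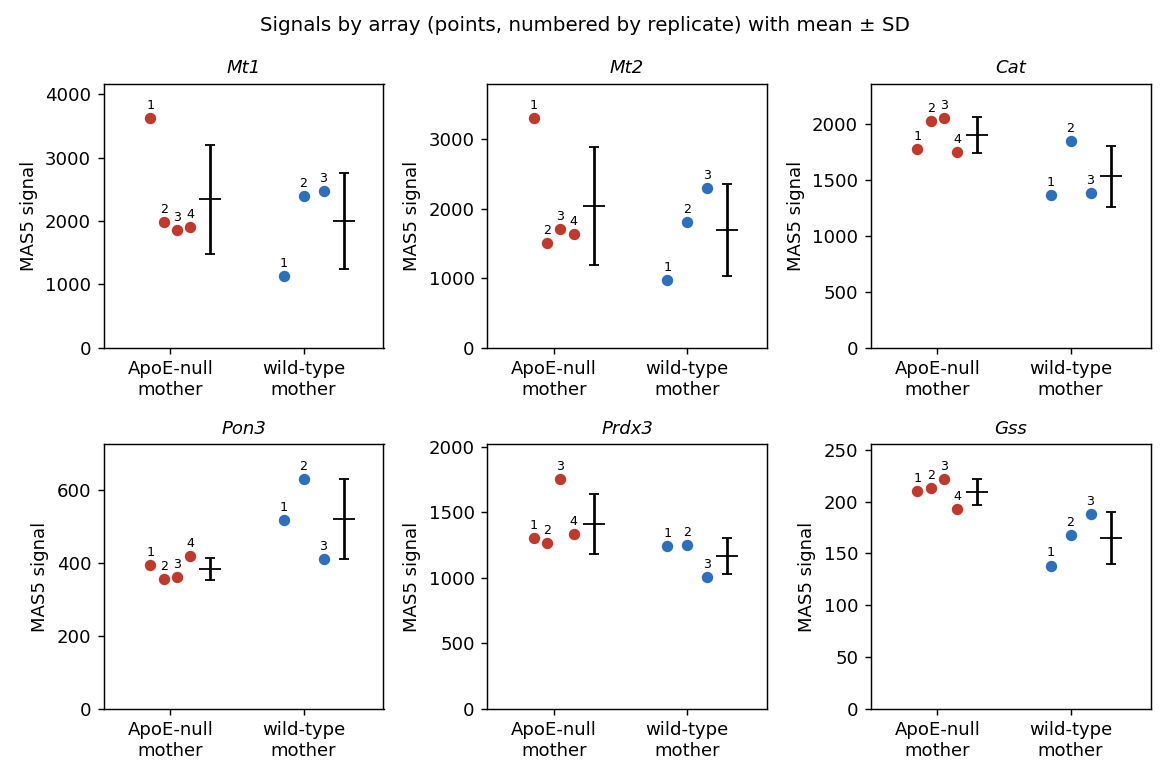
MAS5 signals of Mt1, Mt2, Cat, Pon3, Prdx3 and Gss on each array (points, numbered by replicate within a group), with the mean and SD of each group as a bar at its right. The metallothioneins share their highest array (ApoE-null mother 1) and their lowest (wild-type mother 1), and Prdx3 and Gss are the genes whose groups do not overlap.

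Array by array, the redox genes had their highest and lowest signals unevenly spread. Wild-type mother 2 held the highest signal of 14 of the 35 genes (40%), where it held the highest signal of 18.8% of all genes tested. The 14 were Sod1, Sod2, Gpx1, Gpx4, Prdx2, Prdx4, Txn1, Txn2, Txnrd2, Gsta4, Gstm1, Gstp1, Cyba and Pon3. The median deviation of the 35 genes from their 7-array mean was 0.16 on that array, and -0.10 to 0.07 on the other 6. It also held the lowest signal of 8 genes (22.9%, against 19.5% of all genes), among them Nfe2l2, Gclc, Gsr, Srxn1 and Txnrd1. Wild-type mother 1 held the lowest signal of 10 genes (28.6%, against 13.4% of all genes) and the highest of 1. Wild-type mother 2 had the highest 3 prime to 5 prime ratios (7.80 for Gapdh and 6.71 for Actb). It also had the highest skeletal muscle sum and a Xist signal of 41.2. The part of these features in the pattern was not tested. Wild-type mother 3 held the lowest signal of 5 redox genes (14.3%, against 15.3% of all genes), namely Sod2, Gpx3, Gpx4, Prdx3 and Gsta4. With the adipocyte marker score as covariate, the log2 fold changes of these 5 genes were 0.07, 0.19, -0.32, 0.13 and -0.86. Without it they were 0.32, 0.39, -0.14, 0.27 and -0.42, so all 5 were lower with it. That score was lowest on wild-type mother 3, at -1.22, where the other arrays had -0.19 to 0.47. Choosing genes by their low signal on that array made such a fall likely. Gsta4 had an unadjusted p = 0.000803 and an adjusted p = 0.368 with the covariate (limma). Pon3 (-0.59) and Mt2 (0.63) lay further from 0 with this covariate than without it. With the skeletal muscle score as covariate, Sod2, Gpx3 and Cat stood at 0.59, 0.59 and 0.48. That score was 3.29 on wild-type mother 2 and -0.99 to 0.21 on the other arrays.

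**Figure D3:**
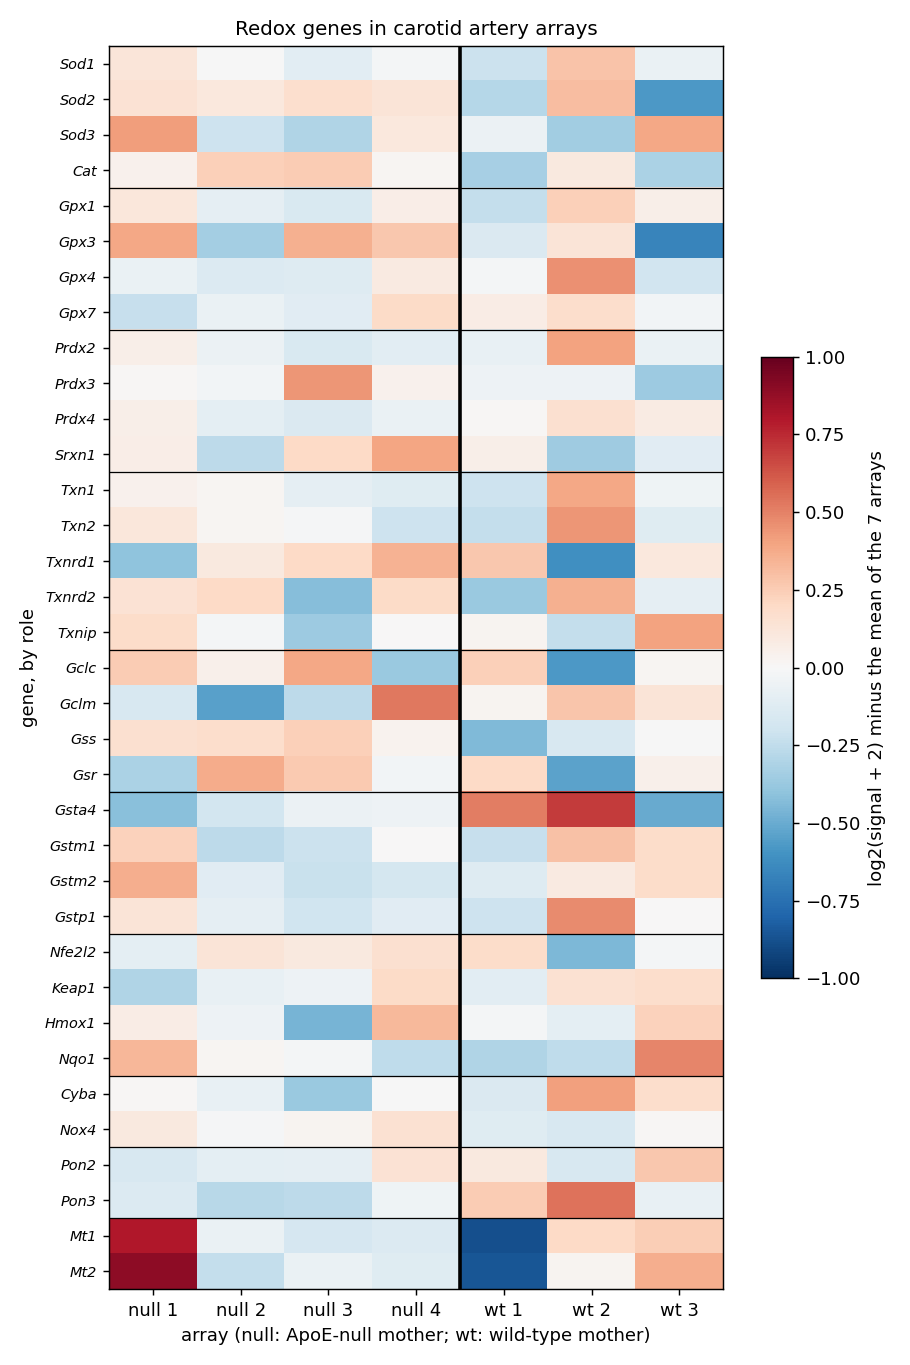
Log2(signal + 2) of each redox gene minus its mean over the 7 arrays, with the 4 ApoE-null mother arrays left of the 3 wild-type mother arrays and genes ordered by role. Red is higher and blue is lower. Wild-type mother 2 holds the highest value of 14 genes, and the rows of Mt1 and Mt2 have the widest range.

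**Figure D4:**
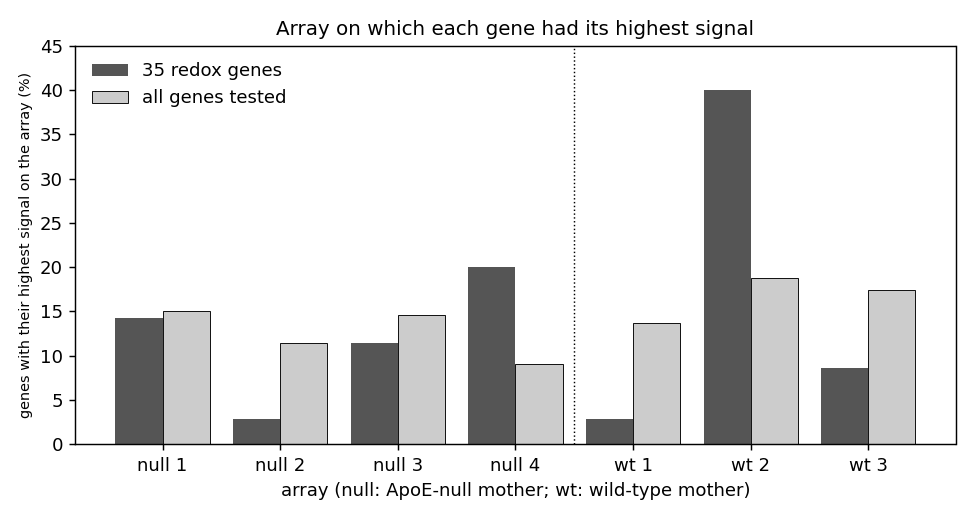
Percent of genes with their highest signal on each array, for the 35 redox genes (dark) and all 12713 genes tested (light). Wild-type mother 2 stands at 40% for the redox genes and 18.8% for all genes.

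Where a gene had several probe sets, they did not always point the same way. The 35 genes had 67 probe sets above the filter, of which 4 had an unadjusted p under 0.05 in limma (5.97%, against 8.25% of all probe sets) and 0 an adjusted one (limma, smallest adjusted p = 0.458). Of the 20 genes with more than 1 such probe set, 10 had log2 fold changes of both signs, Mt1, Prdx4 and Gclm among them. Prdx4 ranged from -0.15 for its strongest probe set to 0.66, and Gclm from -0.25 to 0.40. The probe sets of Sod2, Cat, Gss, Gclc and Nox4 were all positive. Those of Gpx4, Prdx2, Txn2, Txnip and Keap1 were all negative. Of the 35 representing probe sets, 7 have names that mark possible binding to other transcripts.

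The wider redox network was read from a list of 105 further genes, 94 of them above the filter. Of these, 0 passed the test (limma, adjusted p) and 9 had an unadjusted p under 0.05, 4 higher and 5 lower, or 9.57% against 8.65% of all genes. Their median log2 fold change was -0.01. Glutathione enzymes other than the members held 3 of the 9, or 15.8% of the 19 measured, against 8.65% of all genes. The 3 were Gsto1, Ggt5 and Hagh, a glyoxalase named after its values were seen, at -0.33. Gsto1, a glutathione transferase of the omega class, had signals of 1067.0, 1218.3, 1218.5 and 980.5 with an ApoE-null mother and 751.0, 869.5 and 799.8 with a wild-type mother, without overlap, and a log2 fold change of 0.47 (limma, unadjusted p = 0.00551, adjusted p = 0.485). That probe set can bind other sequences, by its name, and the one with no such mark gave 0.12 (limma, unadjusted p = 0.468). Ggt5, a gamma-glutamyl transferase that acts on glutathione conjugates, had a log2 fold change of 0.57, with signals of 114.4 to 172.3 and a median of 129 in the ApoE-null mother group and 81.7 to 100.5 in the wild-type mother group. Its strongest probe set can bind other sequences, and the one with no such mark gave -0.59. NADPH supply had no gene at an unadjusted p under 0.05 among 9. Pgd, of the pentose phosphate pathway, and Nnt, the mitochondrial transhydrogenase, had log2 fold changes of 0.34 and 0.16. Nnt was read from a probe set that can bind other sequences, and it stood at 0.29 with one that has no such mark and at 0.48 with the mean of all its probe sets (limma, unadjusted p = 0.0419 and 0.0199), which would add it to the count.

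In the other lists 6 genes had an unadjusted p under 0.05, of which Slc39a8 and Slc30a4 had positive values and Txndc12, Nfe2l1, Noxo1 and Selenom negative ones. They made up 6.25% of 16 thioredoxin and glutaredoxin genes, 5.56% of 18 NRF2 partners and targets and 14.3% of 7 oxidase genes. The share was 7.69% of 13 selenoprotein genes and 16.7% of 12 metal handling genes, against 8.65% of all genes. With the skeletal muscle score as covariate, p was 0.0631 for Txndc12, 0.0757 for Nfe2l1, 0.334 for Noxo1, 0.414 for Selenom, 0.0958 for Slc39a8 and 0.136 for Slc30a4 (limma, unadjusted). Txndc12, a thioredoxin-like protein of the endoplasmic reticulum, had 498.9 to 547.9 with an ApoE-null mother and 656.8 to 814.2 with a wild-type mother (log2 fold change -0.43; limma, adjusted p = 0.523), and Msrb2, a methionine sulfoxide reductase of mitochondria, had a log2 fold change of 0.29. Nfe2l1, a relative of NRF2, had 1059.1 to 1337.5 with an ApoE-null mother and 1371.4 to 1626.7 with a wild-type mother, without overlap (log2 fold change -0.37; limma, adjusted p = 0.550), and Bach2, a repressor that shares its binding partners, had one of -0.52. Of 18 measured NRF2 partners and further targets, 13 were negative, where 51.2% of all genes tested were, and 1 (5.56%) was below 0.05, against 8.65% of all genes. The list of phagocyte and other oxidase genes had 5 positive and 2 negative values, where 48.8% of all genes tested were positive. The negative ones were Noxo1, an organiser subunit, at -0.66 (limma, adjusted p = 0.601) and Ncf4, a cytosolic subunit, at -0.45. Selenom, a selenoprotein of the endoplasmic reticulum, was at -0.47 (limma, unadjusted p = 0.0426) and Sephs2, which makes the selenium donor for selenoproteins, at 0.29. The zinc importer Slc39a8 had 73.0 to 90.6 with an ApoE-null mother and 41.6 to 70.3 with a wild-type mother, a log2 fold change of 0.67 (limma, adjusted p = 0.540), and the zinc transporter Slc30a4 had one of 0.38 (limma, adjusted p = 0.584). None of these differences passed the test over all probe sets.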

How the data were processed

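The authors deposited 1 MAS5 intensity per probe set and array on a linear scale; MAS5 and GCOS are named, without versions, in the submitters' processing notes. The mean after trimming 2% at each end of each array as deposited was 200.0, so scaling to a common target preceded deposit. Probe sets were named from the platform annotation: of 45101, 34958 had 1 symbol, and 0 symbols changed against the GRCm38.p6 gene table. Signals were transformed to log2(signal + 2), which understates changes of weak genes. The 64 control probe sets were left out and probe sets were kept if their 7-array mean exceeded the 40th percentile (23.6), leaving 27027. The model (lmFit, eBayes with intensity trend) was fitted in limma 3.58.1 under R 4.3.3 without covariates, with p-values adjusted over the kept probe sets (Benjamini-Hochberg), and was tested on simulated data. Array number limits the precision.

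Members and lists were chosen with earlier results of these data known. Values by array are given for members with an unadjusted p under 0.05 or no overlap between groups and for the member with the smallest p in each of 10 role groups. In each further list the 2 genes with the smallest p are named, by fold change or signal range (Gsto1 by array). Sod2, Gclm, Nox4, Mt1 and the further probe sets of Gpx4 and Mt1 were added after their values were seen. Marker scores are mean log2 deviations over a list. Alternatives changed the pseudocount, filter, trend, scaling, probe set, covariates and arrays.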

Additional observations from a re-analysis of the deposited data

Results flagged for a closer look

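In the ApoE-null mother group, 5 of 35 genes had 1 array set apart from the other 3 by more than the critical value of Dixon's test for 4 samples, which chance exceeds in about 1 group in 20. The share of all genes tested that exceeds it was not computed, so whether redox genes stand out by this count cannot be said. Mt1 (3625.0) and Mt2 (3307.9) were both high on ApoE-null mother 1, so their flags may not be separate events. Prdx3 was high on ApoE-null mother 3 (1755.2), and Txnrd2 was low on that array (94.2). Gpx3 was low on ApoE-null mother 2 (1476.4). The wild-type mother group, with 3 arrays, was not tested.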

How the results depend on the processing

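Over 17 alternatives, 0 redox genes passed the adjusted threshold in limma (smallest adjusted p = 0.184, Sod2 without wild-type mother 2), and their median log2 fold change was -0.11 to 0.06. The count at an unadjusted p under 0.05, 2 with all arrays, was 1 without an intensity trend and 4 both with the skeletal muscle score as covariate and with the mean of all probe sets of a gene. It was 0 to 3 when each array was left out, namely 0 without ApoE-null mother 3, 1 without ApoE-null mother 1 or 2 or wild-type mother 1, and 3 without any one of the other arrays. The count of genes without overlap was 1 with the mean of all probe sets and 2 to 5 when each array was left out. Genes with an interval inside 2-fold numbered 31 to 35 of 35, or 34 of 34 with the filter at the 60th percentile and 27 of 28 with unsuffixed probe sets, an outcome whose alternatives were chosen after seeing the data. The skeletal muscle score was 3.29 on wild-type mother 2 and -0.99 to 0.21 on the other arrays, so it mostly sets that array apart. Adding this score and leaving out that array are therefore not separate alternatives. The sign of the log2 fold change turned for 14 genes with the skeletal muscle score as covariate: Sod1 (0.20), Sod3 (-0.11), Gpx1 (0.14), Gpx4 (0.07), Prdx2 (0.06), Txn1 (0.15), Txn2 (0.23), Txnrd1 (-0.27), Gclc (-0.09), Gsr (-0.16), Gstm1 (0.06), Gstm2 (0.02), Gstp1 (0.12) and Nfe2l2 (-0.09). It turned for 3 with the adipocyte score, Txnip (0.14), Gstm2 (0.05) and Hmox1 (0.07), and for Sod1 (0.05) with quantile normalization. With the mean of all probe sets it turned for 8: Sod3 (-0.13), Prdx4 (0.22), Txnrd1 (-0.67), Txnrd2 (-0.02), Gclm (0.07), Gstm1 (0.01), Pon2 (0.04) and Mt1 (-0.48). With probe sets without a suffix of shared probes it turned for Mt1 (-1.22), Ggt5 (-0.59) and Sephs2 (-0.02). The cause was not tested. When each array was left out, the sign held for 17 of the 35 genes, and 13 turned without wild-type mother 2. The values ranged from -0.11 to 0.14 for Sod1, -0.16 to 0.21 for Sod3, -0.17 to 0.08 for Gpx1, -0.28 to 0.05 for Gpx4, -0.23 to 0.01 for Prdx2, -0.21 to 0.08 for Txn1, -0.19 to 0.15 for Txn2, -0.13 to 0.31 for Txnrd1, -0.11 to 0.25 for Txnrd2, -0.26 to 0.05 for Txnip, -0.05 to 0.36 for Gclc, -0.05 to 0.32 for Gsr, -0.31 to 0.03 for Gstp1, -0.01 to 0.30 for Nfe2l2, -0.19 to 0.08 for Hmox1, -0.10 to 0.29 for Nqo1, -0.12 to 0.45 for Mt1 and -0.08 to 0.53 for Mt2. No paired analysis was possible because the labels give the groups no shared replicate numbers. Weak signals, as for Hmox1 (35.0 to 61.9, above the bacterial probe sets on all 7 arrays), limit what can be read from fold changes.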
